A study of Mus musculus with 7 samples.

Results

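The genes described here run the cell cycle. Of the 38 genes chosen, 21 act mainly in mitosis and 17 act in DNA replication or the entry into it. All 38 had a row in the expression table of 17920 genes, and all averaged 1 FPKM or more across the 7 libraries. By this requirement 11378 genes entered the tests. FPKM is a fragment count scaled to transcript length and library depth, so levels of different genes are compared per length. The member nearest to the limit was Cenpf, with a mean of 2.06 FPKM, and Pcna had the highest mean, 209 FPKM.

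The study asked how loss of GdX, the ubiquitin-like protein encoded by the X-linked gene Ubl4a, alters gene expression in the spleen after lipopolysaccharide (LPS), a bacterial cell wall component. Spleens came from 4 wild-type mice and 3 mice labelled GdX-/-, which the treatment protocol calls GdX-/Y. They are called GdX-deficient here, or without GdX, on the strength of that label. All were labelled C57BL/6, aged 8 weeks, and all had received 20 mg/kg LPS intraperitoneally. Spleens were taken 90 min after LPS from 2 wild-type and 2 GdX-deficient mice, and 6 h after LPS from another 2 wild-type mice and 1 GdX-deficient mouse. No mouse without LPS was analysed here, and how the GdX allele was made is not given in the sources used here. RNA came from the whole crushed organ, so a lower level can mean fewer cells of a type or less RNA per cell, which cannot be told apart.

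The depth, read from the step between low values, lay between 19600000 and 21600000 fragments per library. Among members with 1 listed transcript, the lowest estimate was 182 fragments, for Ccnb2. Ubl4a itself (Entrez gene 27643) read 4.03 and 5.69 FPKM without GdX and 5.62 and 7.50 FPKM with it at 90 min. At 6 h it read 10.6 FPKM without GdX and 11.9 and 14.0 FPKM with it, so the entry itself did not separate the genotypes clearly. Gm44504, an entry that overlaps it, read 0.66 to 1.86 FPKM in the 3 GdX-deficient libraries, below every wild-type library (14.5 to 51.1 FPKM). Spleen markers were present in every library: none of the 9 B-cell, 8 T-cell or 8 red pulp macrophage markers in the table was at 0. Pancreas markers, a sign of neighbouring tissue, summed to at most 8.74 FPKM. Across genes, the difference between the wild-type replicates followed transcript length, with a Spearman's rho over 11180 genes of -0.445 for the 90 min pair and -0.589 for the 6 h pair. For the GdX-deficient pair rho was -0.164.

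A dividing cell licenses its origins of replication in G1 by loading the MCM2-7 helicase with the help of CDC6 and CDT1. E2F factors and cyclin E then start S phase, in which PCNA clamps the polymerases to DNA and ribonucleotide reductase, thymidylate synthase and thymidine kinase supply nucleotides. In G2 and mitosis, CDK1 with cyclins A and B, the Aurora and Polo kinases, kinesins and the spindle checkpoint separate the chromosomes, and the anaphase-promoting complex ends the phase. The S-phase genes are known targets of E2F factors. The mitotic genes are switched on later by the MuvB complex with B-MYB and FOXM1, through cell cycle homology elements, and by NF-Y at CCAAT boxes. In mouse spleen, dividing cells include red cell precursors and activated lymphocytes.

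The mitotic and replication members were first compared by promoter motifs. RefSeq promoter entries (GRCm38.p6, 250 bases before to 50 after the start) matched 32 of the 38 members, 17 mitotic and 15 replication. Aurkb, Ccna2, Kif20a, Tpx2, Mcm4 and Ccne2 had no entry. Motifs were searched on both strands, and overlapping matches of 1 kind counted once. A cell cycle homology element, TTTGAA or TTCGAA, was found for 13 of the 17 mitotic members (76.5%) and 3 of the 15 replication members (20.0%), against 21.7% of all 27025 genes in the table. The CCAAT box was found for 15 mitotic (88.2%) and 9 of the 15 replication members, against 41.1% of all genes. All 13 mitotic members with a homology element also had a CCAAT box, a pair held by 8.61% of all genes. An E2F site, TTTCCCGC, TTTGGCGC, TTTCGCGC or GGCGGGAA, was found for 8 replication members (53.3%), 1 mitotic member (5.88%) and 4.00% of all genes. A match is a description of these letters and not evidence that a factor binds there.

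To show both kinds of promoter, the 250 bases before the start are given for the mitotic members with the most matches and for 1 MCM gene. Capitals mark homology elements and CCAAT boxes in the mitotic promoters, and E2F sites in the MCM promoter. Top2a (chr11:99024190-99024439, minus strand) holds 10 such matches, Ube2c (chr2:164769679-164769928, plus strand) holds 6, and Mcm6 (chr1:128359706-128359955, minus strand) holds 2. Mcm3, and Mcm7 in 1 of its 2 entries, had as many E2F matches as Mcm6. Those of Mcm3 lie after its start, so its upstream window is not shown, and Mcm7 came after both by the rule of printing 2 members with ties broken by symbol.
Top2a: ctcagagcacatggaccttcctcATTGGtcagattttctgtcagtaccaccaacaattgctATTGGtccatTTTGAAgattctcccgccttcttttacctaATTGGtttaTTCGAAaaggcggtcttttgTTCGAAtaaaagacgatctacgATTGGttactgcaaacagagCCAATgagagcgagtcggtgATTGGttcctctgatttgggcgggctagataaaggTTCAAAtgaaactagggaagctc
Ube2c: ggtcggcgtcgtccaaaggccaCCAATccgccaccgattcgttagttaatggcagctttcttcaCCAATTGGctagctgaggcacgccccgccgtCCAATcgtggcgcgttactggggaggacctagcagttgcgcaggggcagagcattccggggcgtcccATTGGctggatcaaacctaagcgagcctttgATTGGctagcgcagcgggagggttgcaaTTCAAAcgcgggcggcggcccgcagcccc
Mcm6: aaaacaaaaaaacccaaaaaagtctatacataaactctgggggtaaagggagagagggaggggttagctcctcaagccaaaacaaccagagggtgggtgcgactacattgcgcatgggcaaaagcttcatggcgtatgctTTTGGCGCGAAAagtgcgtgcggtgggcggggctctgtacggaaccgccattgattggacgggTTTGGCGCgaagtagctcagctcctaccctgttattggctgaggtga

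More members passed the threshold over time in wild-type spleen than in any other comparison. Between 90 min and 6 h after LPS, Mki67, Ccnb2, Ccna2 and Ube2c of the mitotic members and E2f2 of the replication members fell, while the MCM helicase genes Mcm2, Mcm6 and Mcm7 rose. These 8 members passed the threshold of limma (adjusted p under 0.05 over all 11378 genes). That is 3 of 38 members higher (7.89%) and 5 of 38 lower (13.2%), against 4.39% and 6.32% of all genes tested. These shares rest on 3 and 5 genes. The median difference of all genes was 0.05 in log2(FPKM + 1), a scale on which genes of low level show less than their true fold.

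**Figure D1:**
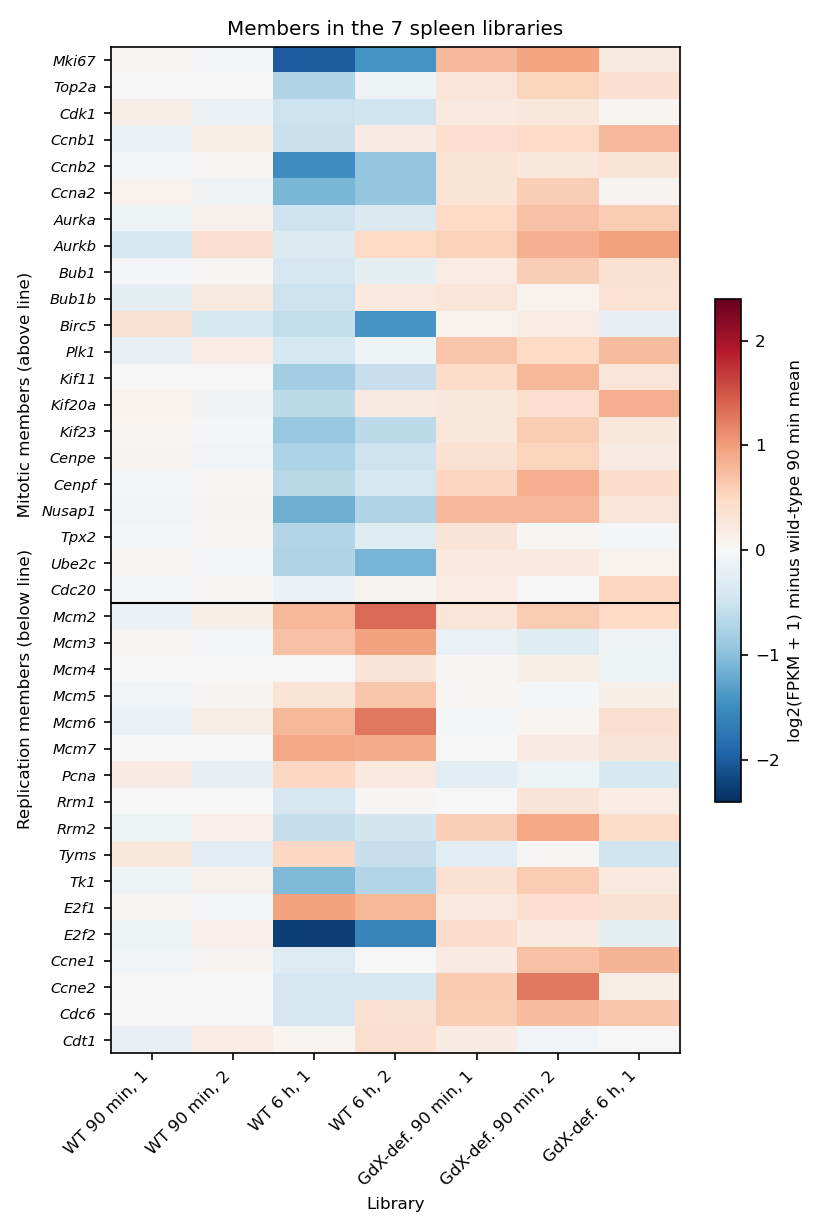
Level of each member in each library as log2(FPKM + 1) minus the mean of the 2 wild-type 90 min libraries (colour), for 21 mitotic members above the line and 17 replication members below it. The wild-type 6 h libraries are blue for Mki67, Ccnb2, Ccna2, Ube2c and E2f2 and red for Mcm2, Mcm6 and Mcm7.

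Among mitotic members, Mki67, which encodes the chromosome surface protein Ki-67 and is the usual marker of dividing cells, had 25.4 and 24.5 FPKM in wild type at 90 min, then 5.51 and 8.55 FPKM at 6 h. Both late libraries lay far below both early ones, at 0.28 of the earlier mean. The log2 difference was -1.72 (SE 0.28, limma adjusted p = 0.0081). Ccnb2, a B-type cyclin that activates CDK1, had 17.1 and 18.2 FPKM at 90 min, then 5.64 and 8.81 FPKM at 6 h (log2 difference -1.21, SE 0.29, limma adjusted p = 0.0314).

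Ccna2, the cyclin of S phase and G2, had 24.9 and 22.2 FPKM at 90 min, then 10.5 and 11.8 FPKM at 6 h. Its log2 difference was -1.01 (SE 0.26, limma adjusted p = 0.039). Ube2c, the ubiquitin-conjugating enzyme of the anaphase-promoting complex and the most abundant mitotic member per length, had 99.3 and 91.95 FPKM at 90 min, then 57.5 and 43.7 FPKM at 6 h (log2 difference -0.92, SE 0.25, limma adjusted p = 0.0456). In each of these genes the early and late libraries did not overlap.

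The other 17 mitotic members did not pass the threshold in wild type. Nusap1, a spindle microtubule protein, came nearest, with 13.2 and 14.6 FPKM at 90 min, then 5.56 and 7.97 FPKM at 6 h (log2 difference -0.96, limma adjusted p = 0.0614). Birc5 (survivin, of the chromosomal passenger complex) had widely spread replicates, at 63.8 and 37.9 FPKM at 90 min, then 32.2 and 17.9 FPKM at 6 h. The kinesins Kif11, Kif20a and Kif23 had log2 differences of -0.69, -0.21 and -0.77, and the kinetochore proteins Cenpe and Cenpf of -0.63 and -0.55.

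Cdk1, the central kinase of mitosis, had a log2 difference of -0.49, its partner Ccnb1 of -0.17, Aurka of -0.42, Plk1 of -0.26 and the checkpoint kinases Bub1 and Bub1b of -0.31 and -0.14. Top2a, the topoisomerase that untangles chromosomes, differed by -0.43 and the spindle assembly factor Tpx2 by -0.49. Cdc20, the activator of the anaphase-promoting complex, differed by -0.04, and Aurkb was the only mitotic member above 0, at 0.07, with -0.02 once globin genes were left out and the values rescaled. Early and late libraries did not overlap for 15 of the 21 mitotic members, all lower at 6 h, against 27.6% of all genes.

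Among the replication members, 3 of the 6 MCM genes rose. Mcm2 had 16.1 and 19.6 FPKM at 90 min, then 31.5 and 46.98 FPKM at 6 h, 2.20 times the earlier mean. The log2 difference was 1.07 (SE 0.29, limma adjusted p = 0.0469). Mcm6 had 25.2 and 31.2 FPKM at 90 min, then 49.2 and 68.6 FPKM at 6 h (log2 difference 1.03, SE 0.27, limma adjusted p = 0.0422).

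Mcm7, the MCM gene with the highest level per length, had 36.4 and 36.7 FPKM at 90 min, then 70.5 and 68.7 FPKM at 6 h. Its replicates lay close together, and its log2 difference was 0.91 (SE 0.24, limma adjusted p = 0.0412). Mcm3 had 32.3 and 30.9 FPKM at 90 min, then 51.9 and 62.5 FPKM at 6 h, a log2 difference of 0.83 that did not pass (limma adjusted p = 0.0619). Mcm5 and Mcm4 differed by 0.49 and 0.15. The 6 subunits of 1 complex thus differed in size of change, and Mcm4 was the subunit whose early and late libraries overlapped. Under each scaling tried, all 6 stayed above 0 in this comparison.

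E2f1 and E2f2, activating members of the same factor family, were on opposite sides. E2f2 had 28.9 and 34.0 FPKM at 90 min, then 5.75 and 9.61 FPKM at 6 h, a log2 difference of -1.93 (SE 0.30, limma adjusted p = 0.00649), the largest change among the 38 members in this comparison. E2f1 had 5.13 and 4.92 FPKM at 90 min, then 10.8 and 9.42 FPKM at 6 h, a log2 difference of 0.88 that did not pass (limma adjusted p = 0.0784). At 90 min E2f2 was thus the more abundant of the pair per length, and at 6 h in wild type their ranges met, with E2f1 at 9.42 to 10.8 FPKM.

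None of the enzymes of nucleotide supply passed, and none had an estimate above 0. Tk1, thymidine kinase, had 20.0 and 23.2 FPKM at 90 min, then 9.85 and 12.8 FPKM at 6 h (log2 difference -0.88, limma adjusted p = 0.07). Rrm2, the regulated subunit of ribonucleotide reductase, differed by -0.50, and its partner Rrm1 by -0.19. Tyms, thymidylate synthase, had late libraries at 30.7 and 14.3 FPKM around early ones at 25.8 and 17.9 FPKM, so it had no clear direction. Cyclins Ccne1 and Ccne2 differed by -0.15 and -0.42, the licensing factors Cdc6 and Cdt1 by -0.01 and 0.21, and the clamp Pcna by 0.36. Across the replication members, 7 were higher without overlap, against 30.3% of all genes, and 4 were lower without overlap, against 27.6%.

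Wild-type calls leaned on the libraries and settings used. Mki67 and E2f2 passed under all 16 alternatives, with adjusted p up to 0.0383 and 0.0398. Leaving out wild-type 6 h replicate 2 gave 0 members higher and 6 lower, while the count over all genes went from 499 to 672 higher and from 719 to 1102 lower. Leaving out either wild-type 90 min library gave 0 higher and 2 lower, and fewer calls over all genes as well (128 and 322 without replicate 1, 209 and 341 without replicate 2). With either GdX-deficient 90 min library left out the median log2 differences stayed at -0.49 for mitotic and 0.15 for replication members. Fewer members passed then, as did fewer of all genes. The split between directions also moved with scaling. It was 1 higher and 7 lower after quantile normalization, with 591 higher and 779 lower over all genes. After leaving out globin genes it was 0 and 3, with 191 and 509 over all genes. The share of globin genes in all FPKM was between 7.73% and 30.9%.

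**Figure D2:**
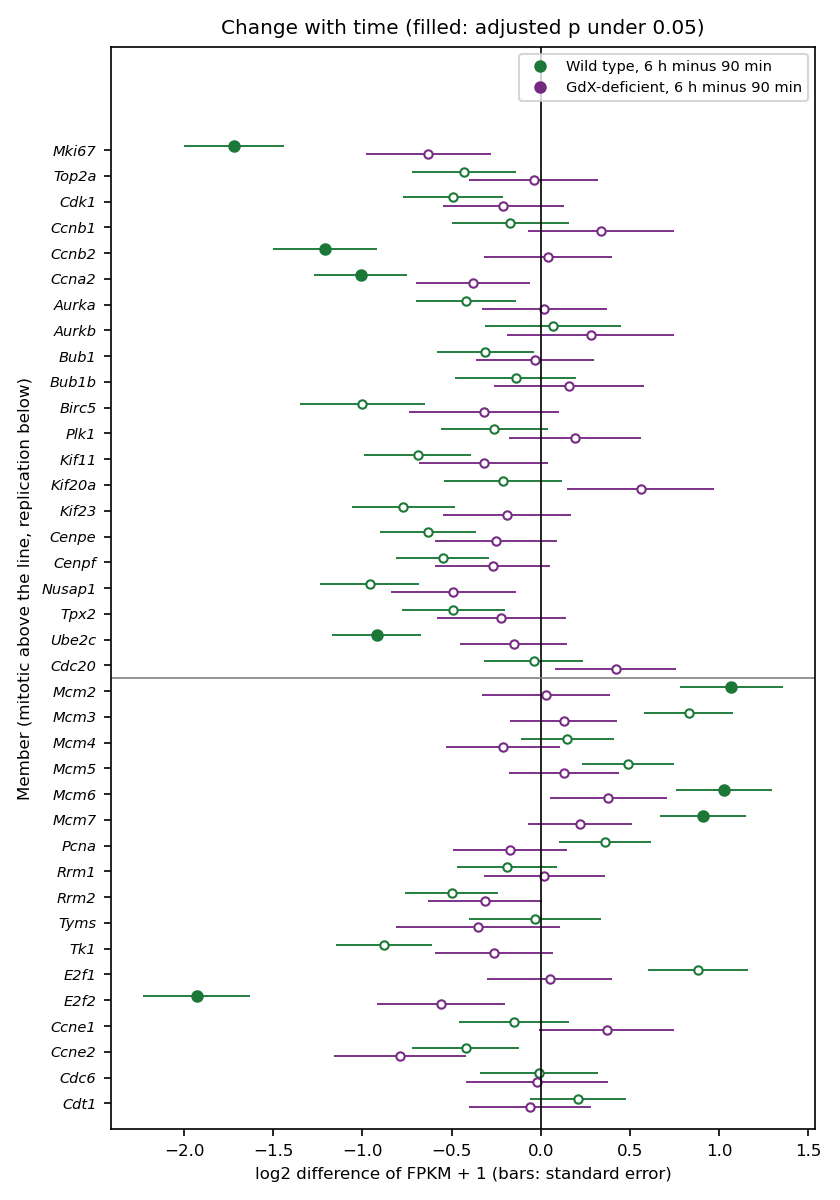
log2 difference between 6 h and 90 min for each member in wild type (green) and GdX-deficient spleen (purple), with standard errors; filled points passed the threshold. In wild type 20 of 21 mitotic members lie below 0 and all 6 MCM subunits above it, while the purple points lie between -0.79 and 0.56 and none is filled.

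In GdX-deficient spleen no member passed the test over the same interval, although 11 of 38 were higher and 18 lower in the late library than in both early ones, against 56.8% and 15.8% of all genes. Limma called 0 of 38 members, with 0 at an unadjusted p under 0.05, against 0% of all genes called and 910 genes at an unadjusted p under 0.05. The single 6 h library was assumed to vary like the libraries of the other groups. Mki67 had 43.3 and 48.7 FPKM at 90 min, then 29.3 FPKM at 6 h (log2 difference -0.63, SE 0.35, limma adjusted p = 0.745). The late library was below both early ones, yet above all 4 wild-type libraries.

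Ccnb2 had 22.5 and 21.1 FPKM at 90 min, then 22.4 FPKM at 6 h, within the early range (log2 difference 0.04, SE 0.36). E2f2 had 42.3 and 37.1 FPKM at 90 min, then 26.5 FPKM at 6 h (log2 difference -0.56, SE 0.36, limma adjusted p = 0.788). Ccne2, cyclin E2, had the lowest difference, -0.79 (SE 0.37, limma adjusted p = 0.65), with 5.09 and 8.47 FPKM at 90 min, then 3.38 FPKM at 6 h. At the other end was Kif20a, a kinesin of cytokinesis, at 0.56 (limma adjusted p = 0.808).

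The MCM genes had no difference past the threshold either. Mcm2 had 21.96 and 27.5 FPKM at 90 min, then 25.1 FPKM at 6 h (log2 difference 0.03, SE 0.36). Mcm6 (0.38, SE 0.33) and Mcm7 (0.22, SE 0.29) had a late library above both early ones. Of the 21 mitotic members, 6 were higher and 11 lower in the late library without overlap, against 56.8% and 15.8% of all genes. The median difference of all genes was 0.25 here, so the mitotic median of -0.15 and the replication median of -0.02 lay below it. Without GdX-deficient 90 min replicate 2 they were -0.03 and 0.05. With 1 library against 2 the errors were larger than in wild type, 0.35 against 0.28 for Mki67.

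Whether the time courses differed between genotypes was tested as an interaction in the same fit. None of the 38 members passed, with 4 at an unadjusted p under 0.05, against 0.0703% of all genes called and 1136 at an unadjusted p under 0.05. The estimates were 1.37 for E2f2 (SE 0.47, limma adjusted p = 0.345), 1.24 for Ccnb2 (SE 0.46, 0.383), 1.09 for Mki67 (SE 0.45, 0.455) and -1.04 for Mcm2 (SE 0.46, 0.498). All 21 mitotic members had an interaction above 0 (median 0.45), but 14 of 21 did after quantile normalization and 19 of 21 with the length trend removed. The estimates were below 0 for all 6 MCM subunits (median -0.67), where the median of all genes was 0.19. After quantile normalization the mitotic median was 0.16. The estimates share the 6 h libraries, so members are not separate evidence.

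The balance between the groups of members within a library does not depend on a factor common to all genes on the FPKM scale, apart from the pseudocount. The mean log2 level of the mitotic members minus that of the replication members was -0.91 and -0.92 in wild type at 90 min and -1.67 and -1.55 at 6 h. It was -0.71 and -0.77 in GdX-deficient spleen at 90 min and -0.73 at 6 h. Set against the MCM subunits alone, the mitotic mean was lower by 1.32 and 1.39 in wild type at 90 min, by 2.69 in both libraries at 6 h, by 1.01 and 0.98 in GdX-deficient spleen at 90 min and by 1.18 at 6 h. The wild-type 6 h libraries thus stood apart from the other 5. For the mitotic minus replication mean, the SD within groups was 0.05, pooled over the groups with 2 libraries, wild type at 6 h among them. Members were chosen with earlier results of these data known, so no p-value is given for these means.

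**Figure D3:**
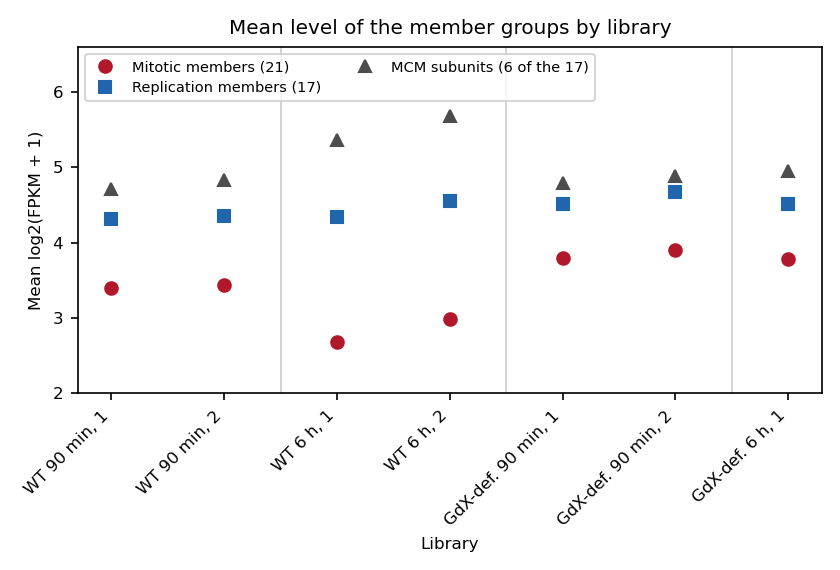
Mean log2(FPKM + 1) of the 21 mitotic members (circles), the 17 replication members (squares) and the 6 MCM subunits among them (triangles) in each of the 7 libraries. In wild type at 6 h the circles sit at 2.68 and 2.99, below all other libraries, and the triangles at 5.36 and 5.68, above all other libraries, although after globin rescaling replicate 1 (5.05) lies below the GdX-deficient 6 h library (5.08).

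At 6 h, Mki67, Ccnb2 and E2f2 were higher in the GdX-deficient library than in wild type. These 3 of 38 members (7.89%) passed the threshold, against 2.91% of all genes, and 0 members were lower, against 1.05% of all genes. This comparison shares its wild-type 6 h libraries with the time comparison, so it is not separate evidence on those genes. The single GdX-deficient library was again assumed to vary like the others, and the median difference of all genes was 0.32 toward GdX-deficient, or -0.02 after quantile normalization.

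Mki67 was 4.16-fold higher in FPKM, at 29.3 against 5.51 and 8.55 FPKM (log2 difference 1.94, SE 0.35, limma adjusted p = 0.0275). E2f2 stood at 26.5 against 5.75 and 9.61 FPKM, 3.45-fold higher (log2 difference 1.70, SE 0.36, limma adjusted p = 0.0408). Ccnb2 stood at 22.4 against 5.64 and 8.81 FPKM, 3.09-fold higher (log2 difference 1.53, SE 0.36, limma adjusted p = 0.048). In all 3 the GdX-deficient library lay above both wild-type libraries. Across the alternatives the log2 difference ran from 1.20 to 2.22 for Mki67, 1.20 to 2.03 for E2f2 and 1.24 to 1.81 for Ccnb2.

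The remaining mitotic members pointed the same way without passing. All 21 lay above both wild-type libraries at 6 h, against 54.9% of all genes, with log2 differences from 0.44 for Tpx2 to 1.94 for Mki67 and a median of 0.97. The direction was lost for Bub1b after quantile normalization (-0.05) and for Tpx2 once a trend on transcript length was removed (-0.02). Nusap1 (1.24, limma adjusted p = 0.0687), Kif20a (1.09), Ccna2 (1.08), Aurka (1.03), Plk1 (1.02) and Kif23 (1.02) were among the larger differences.

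Replication members were split at 6 h. All 6 MCM subunits lay below both wild-type libraries, with log2 differences from -0.92 for Mcm3 to -0.27 for Mcm4, and Pcna stood at 159 against 289 and 242 FPKM (-0.73). None of these passed, and the lowest adjusted p among MCM genes was 0.0969. In contrast, Tk1 (1.11), Ccne1 (0.98), Rrm2 (0.94) and Cdc6 (0.68) lay above both. In all, 7 replication members were above and 9 below without overlap, against 54.9% and 25.3% of all genes. Leaving out 1 library moved the count of members called higher from 1, without either GdX-deficient 90 min library, to 10, with wild-type 6 h replicate 2 left out, where the count over all genes went from 331 to 2272 higher. Mki67 lost its call under 1 of 15 alternatives, E2f2 under 6 and Ccnb2 under 10, and after removal of the length trend limma called 6 members higher and 3 lower.

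**Figure D4:**
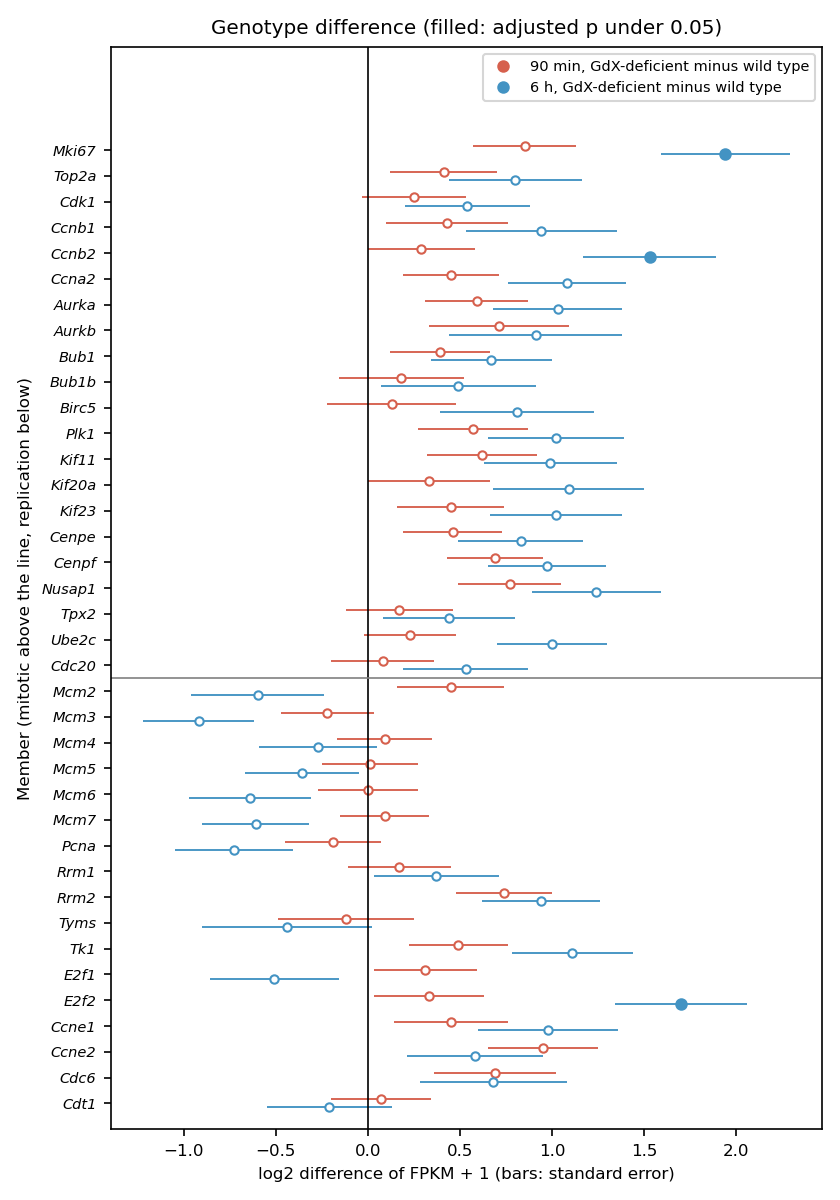
log2 difference between GdX-deficient and wild-type spleen for each member at 90 min (red) and 6 h (blue), with standard errors; filled points passed the threshold. All 21 mitotic members lie above 0 at both times (not so for Bub1b at 6 h and Cdc20 at 90 min after quantile normalization, nor for Tpx2 with the length trend removed, nor at 90 min for Cdc20, Bub1b or Birc5 when 1 library is left out), and the 6 MCM subunits lie below 0 at 6 h but between -0.22 and 0.45 at 90 min.

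At 90 min no member passed between the genotypes. Limma called 0 of 38 members, with 5 at an unadjusted p under 0.05, against 0.0176% of all genes called and 862 at an unadjusted p under 0.05. Ccne2 had the largest difference, at 5.09 and 8.47 FPKM without GdX against 2.93 and 2.91 FPKM with it (log2 difference 0.95, SE 0.30, limma adjusted p = 0.573). Mki67 followed, at 43.3 and 48.7 against 25.4 and 24.5 FPKM (0.85, SE 0.28, limma adjusted p = 0.573), and Rrm2 stood at 39.96 and 51.4 against 24.5 and 29.0 FPKM (0.74, SE 0.26, limma adjusted p = 0.603). In these 3 genes both GdX-deficient libraries lay above both wild-type libraries. That held for 18 of the 21 mitotic and 9 of the 17 replication members, against 24.1% of all genes, and 1 member, Mcm3, lay below, against 23.4%. The median difference was 0.43 for mitotic and 0.17 for replication members, beside 0.07 for all genes. The summed erythroid markers were also higher without GdX at this time, at 2008 and 1856 against 1017 and 1117 FPKM. Neutrophil markers stood at 991 and 4694 against 1066 and 683 FPKM, and stroma markers at 60.3 and 60.2 against 128 and 93.7 FPKM. The part of any of these in the members' differences was not tested.

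The genotypes were also compared over both times, with 3 libraries against 4 and time as a term. None of the 38 members passed, with 23 at an unadjusted p under 0.05, against 0.0439% of all genes called and 3071 at an unadjusted p under 0.05. Mki67 had a log2 difference of 1.29 (SE 0.27, limma adjusted p = 0.0991), Nusap1 of 0.96 (SE 0.23, 0.101) and Rrm2 of 0.82 (SE 0.21, 0.101). GdX-deficient libraries were higher without overlap at both times for 18 mitotic and 6 replication members, against 19.0% of all genes, and lower at both times for 1 member, against 13.0%. The mitotic median was 0.63 and the replication median -0.02, beside 0.16 for all genes. Leaving out GdX-deficient 90 min replicate 1 gave 10 members called higher, with 1207 genes higher and 467 lower in all, against 4 and 1 with every library. Leaving out wild-type 90 min replicate 2 gave 1 member, with 181 genes higher and 61 lower in all.

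Other genes of the pathway, from lists of machinery that are no members, were examined in the same fits. Of 46 other replication genes, 2 rose (4.35%, against 4.39% of all genes) and 0 fell (against 6.32%) in wild type between 90 min and 6 h, with a median of 0.37. The share that rose was that of all genes. Tipin, of the fork protection complex, had 19.1 and 13.9 FPKM at 90 min, then 40.1 and 33.3 FPKM at 6 h (log2 difference 1.12, SE 0.28, limma adjusted p = 0.0346). Orc2, an origin recognition subunit, rose by 1.08 (limma adjusted p = 0.0493). Both calls were lost under 8 of 16 alternatives. Their estimates were above 0 for 40 of the 46 genes.

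Of 54 other mitotic genes tested, 1 rose (1.85%) and 3 fell (5.56%) in wild type, shares below those of all genes (4.39% and 6.32%), with a median of -0.36 and 43 estimates below 0. Cdc25b, a phosphatase that activates CDK1, fell from 14.2 and 18.4 to 4.44 and 6.14 FPKM (log2 difference -1.46, SE 0.29, limma adjusted p = 0.0167). Cdca3 (-1.08) and the centromeric histone Cenpa (-1.07) also fell, and Trip13, a remodeller of checkpoint complexes, rose by 1.09. These calls were lost under 4 of 16 alternatives for Cdca3 and Cenpa, under 2 of 16 for Cdc25b and under 5 of 15 for Trip13. Cdc25b was also higher at 6 h without GdX, at 25.5 FPKM (log2 difference 2.09, SE 0.36, limma adjusted p = 0.0255), the 1 gene of the 54 to pass there (1.85%, against 2.91% of all genes).

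Among 23 transcription factors and G1 kinases, 1 rose and 1 fell over time in wild type (4.35% each, against 4.39% and 6.32% of all genes). At 6 h, 2 were higher and 1 lower without GdX (8.70% and 4.35%, against 2.91% and 1.05%). Cdk4, the partner of the D cyclins, rose in wild type from 113 and 103 to 321 and 265 FPKM (log2 difference 1.43, SE 0.24, limma adjusted p = 0.00922). Without GdX its level at 6 h was 115 FPKM, lower than in both wild-type libraries (-1.34, limma adjusted p = 0.0435). Tfdp2, a dimer partner of E2F factors, fell in wild type by 1.65 on the log2 scale and was higher in the GdX-deficient 6 h library (1.71, limma adjusted p = 0.0452). Ccnd1, a D cyclin, was also higher there, at 36.9 against 5.20 and 10.2 FPKM (2.19, limma adjusted p = 0.0393). Cdk4 kept its wild-type call under all 16 alternatives but lost its 6 h call under 8 of 15, and Tfdp2 and Ccnd1 lost theirs at 6 h under 7 and 4. The wild-type call of Tfdp2 was lost under 3 of 16.

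Of 23 cell cycle inhibitors and quiescence genes, 0 rose and 4 fell (17.4%) in wild type, against 4.39% and 6.32% of all genes. Btg2, an antiproliferative factor, fell from 112.1 and 112.8 to 22.9 and 23.2 FPKM (log2 difference -2.24, SE 0.23, limma adjusted p = 0.00131) and stood at 77.8 FPKM in the GdX-deficient 6 h library (1.71 above wild type, limma adjusted p = 0.0219). Its relative Btg1 (-1.16) and the inhibitor Cdkn2d (-1.07) fell as well, calls lost under 2 and 4 of 16 alternatives. Of 17 recombination and checkpoint genes, the kinase Chek1 alone rose in wild type (5.88%, against 4.39% of all genes). Its log2 difference was 1.16 (limma adjusted p = 0.0422), a call lost under 8 of 15 alternatives. No gene of the 5 lists passed in GdX-deficient spleen over time or between genotypes at 90 min.

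Markers of several spleen cell types also differed between the groups. The 17 erythroid markers summed to 1017 and 1117 FPKM in wild type at 90 min, then 303 and 413 FPKM at 6 h, and 14 of the 17 fell by the limma test, against 6.32% of all genes. Their sum was 2008 and 1856 FPKM in GdX-deficient spleen at 90 min and 1125 FPKM at 6 h, where 12 of 17 were higher than in wild type, against 2.91% of all genes. The 9 B-cell markers summed to 1702 and 1621 FPKM in wild type at 90 min, then 547 and 615 FPKM at 6 h. Of the 9, 4 fell by the limma test, against 6.32% of all genes. Without GdX the B-cell markers summed to 1416 and 2364 FPKM at 90 min, and the 6 h library lay between these at 2018 FPKM.

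T-cell markers summed to 402 and 344 FPKM in wild type at 90 min, then 183 and 161 FPKM at 6 h. Of the 8 T-cell markers, 4 fell by the limma test, against 6.32% of all genes. The GdX-deficient sums were 298 and 381 FPKM, then 326 FPKM. Neutrophil markers stood at 4694 FPKM in GdX-deficient 90 min replicate 2 and 2588 FPKM in the GdX-deficient 6 h library, against 683 to 1066 FPKM elsewhere. Neutrophil precursor markers summed to 69.9 FPKM in the GdX-deficient 6 h library and to 112 and 71.6 FPKM in wild type at 6 h, while 4 of the 7 tested lay above both wild-type libraries and 1 below (median 0.38), near the 54.9% and 25.3% of all genes and their median of 0.32. Of the remaining lists, red pulp macrophage markers (4 of 8), stroma markers (2 of 6), tissue handling genes (4 of 7) and the 1 pancreas marker tested also fell in wild type over time. So did 2 neutrophil precursor markers and 1 each of the megakaryocyte, natural killer cell and plasma cell lists, while 1 plasma cell marker rose. At 6 h, 3 of 8 red pulp macrophage, 3 of 9 B-cell, 1 of 8 T-cell and 1 of 7 natural killer cell markers were higher without GdX, and of the tissue handling genes 1 was higher and 1 lower. Over all genes 6.32% fell over time in wild type, and at 6 h 2.91% were higher and 1.05% lower without GdX. Natural killer cell markers summed to like values at 6 h (306 and 299 FPKM with GdX, 305 FPKM without), while 5 of the 7 lay above both wild-type libraries, against 54.9% of all genes. Erythroid, B-cell, T-cell, red pulp macrophage and plasma cell sums were all low in the libraries with low mitotic members. Red pulp macrophage sums were 786 and 648 FPKM in wild type at 6 h, against 922 to 1220 FPKM elsewhere. Plasma cell sums were 346 and 301 FPKM in wild type at 6 h, against 444 to 496 FPKM elsewhere. The MCM genes were high in the wild-type 6 h libraries, and the part of cell composition in any member's difference was not tested.

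**Figure D5:**
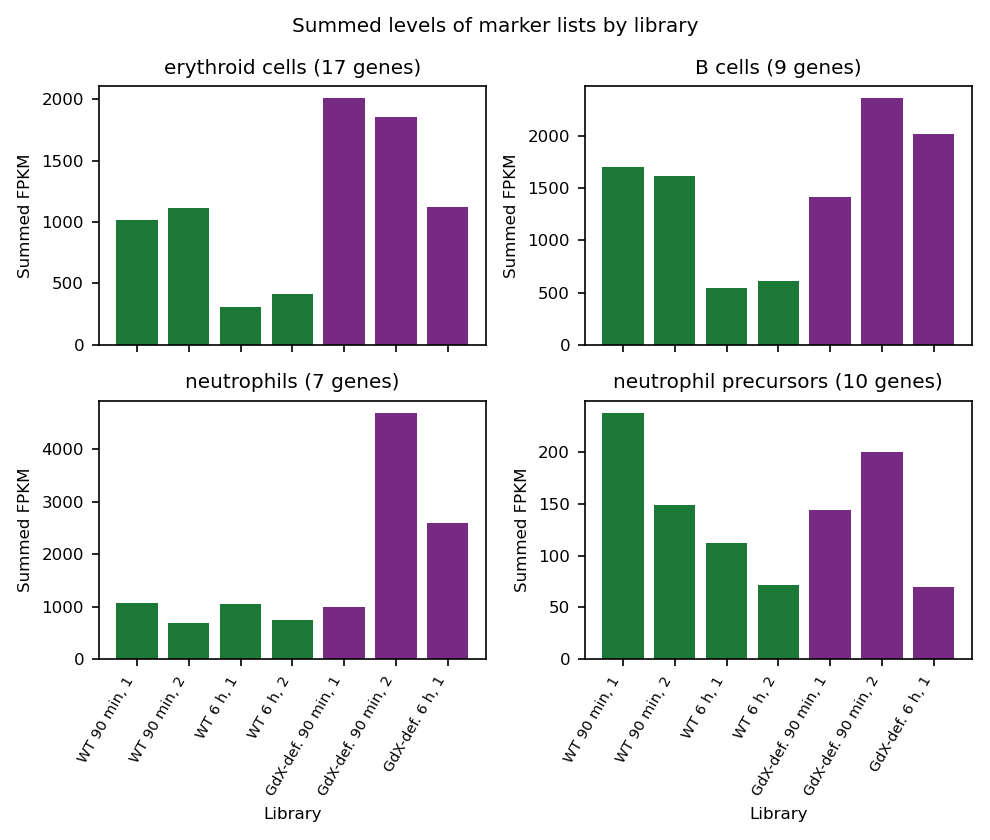
Summed FPKM of 4 marker lists in each library, wild type in green and GdX-deficient in purple. Erythroid and B-cell sums are lowest in the 2 wild-type 6 h libraries (303 and 413 FPKM, and 547 and 615 FPKM), neutrophil sums are highest in 2 GdX-deficient libraries, and precursor sums are 69.9 to 112 FPKM in all 3 libraries at 6 h.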

How the data were processed

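Spleen RNA of 7 mice, 1 library each, was read on a BGISEQ-500. The labels' protocols name both oligo-dT selection and rRNA depletion, so which was used is not known here. The authors deposited a single table of FPKM values, not of counts, in which each library has 1 column and values carry 2 decimals. The submitters' processing notes name HISAT2 2.0.4, Bowtie2, RSEM and GRCm38.p5, without roles. No column was left unmapped.

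Values were converted to log2(FPKM + 1), and genes with a mean of at least 1 FPKM entered limma 3.58.1 under R 4.3.3 (empirical Bayes with a trend, two-sided, Benjamini-Hochberg adjustment over 11378 genes, threshold 0.05). A model of the 4 groups gave the time, genotype and interaction tests, and an additive model the genotype test with time as covariate. Residual spread comes from 3 pairs of libraries. The script was checked on simulated data. Alternatives were a pseudocount of 0.1, no filter or a mean of at least 5 FPKM, quantile normalization, rescaling without globin genes, the replicate number as block, the compared libraries alone, no trend and leaving out each library. Removal of a length trend and a crossed block were chosen after seeing the data.

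Members and lists were chosen with earlier results of these data known. All members are named. Other pathway genes are named when past the threshold, up to 3 per direction with the smallest p. Promoters were chosen as the 2 mitotic and 2 replication members with the most motif matches of their own kind, ties by symbol. Depth was estimated from the 5014 genes with 1 transcript of known length, where between 67.5% and 74.5% of low values lay within 0.15 of a whole fragment.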

Additional observations from a re-analysis of the deposited data

How the results depend on the processing

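All values here are log2 differences unless they are counts of members or of genes. The calls for Mki67 and E2f2 over time in wild type held under all 16 alternatives, whereas the other 6 calls of that comparison were each lost under 5 to 10 of them. No member passed at 90 min, over time in GdX-deficient spleen or in the interaction under any alternative run. The cause of the shifts below was not tested. Depth and 1 to 2 libraries per group limit all comparisons, and low FPKM rest on few fragments.

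For time in wild type (3 members higher and 5 lower), limma called 1 and 2 without a filter, which adds genes to the adjustment. It called 1 higher after quantile normalization, 0 and 3 after globin rescaling and 5 and 8 with the length trend removed. On only the libraries compared it called 1 and 3, and without the trend in variance 0 higher. Over all genes limma called 499 and 719, then 237 and 398 without a filter and 591 and 779 after quantile normalization. It called 191 and 509 after globin rescaling and 1188 and 1314 with the length trend removed. On only the libraries compared it called 423 and 668 of all genes, and 463 and 692 without the trend in variance. For genotype at 6 h (3 higher, 0 lower) it called 0 higher without a filter, 1 after globin rescaling, 1 on only the libraries compared, and 6 and 3 with the length trend removed. With the replicate block, limma called 5 and 8 members over time in wild type, where it called 1073 and 1272 of all genes. For genotype at 6 h it called 17 and 1 members, and 2665 and 718 of all genes. The replicate numbers were not shown to pair the animals. Deviations of same-numbered libraries correlated at 0.768 between the wild-type groups, -0.120 between the 90 min groups and 0.080 for the third pair of groups. A block with crossed numbers at 90 min gave 2 calls over all genes and 0 among members.

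Mitotic and replication medians moved as follows. After globin rescaling they were 0.61 and 0.37 for genotype at 90 min, 1.17 and -0.01 at 6 h and 0.84 and 0.19 over both times, and the replication median over time in wild type was 0.04. After quantile normalization they were 0.49 and -0.39 for genotype at 6 h and -0.29 and -0.26 over time in GdX-deficient spleen, and the mitotic median was 0.48 for genotype over both times and 0.16 for the interaction. With the length trend removed they were 0.63 and -0.68 at 6 h, -0.31 and -0.27 over time in GdX-deficient spleen, 0.43 and -0.19 over both times and 0.24 and -0.62 for the interaction. A pseudocount of 0.1 gave a mitotic median of 0.77 over both times. It also set the mitotic minus replication mean at -0.77 and -0.83 in GdX-deficient and -1 in both wild-type libraries at 90 min, and at -1.86 and -1.69 in wild type at 6 h. Quantile normalization set it at -0.80 in the GdX-deficient 6 h library, -0.84 in GdX-deficient 90 min replicate 2 and -1.47 in wild-type 6 h replicate 1.

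Some members changed sign. For genotype at 6 h these were Bub1b (-0.05) and Ccne2 (-0.04) after quantile normalization, Tpx2 (-0.02) and Rrm1 (-0.08) with the length trend removed, and Cdt1 (0.06) after globin rescaling. Over time in wild type they were Aurkb (-0.02, globin rescaling) and Cdc6 (0.06, quantile normalization). For genotype at 90 min, 13 replication members, 4 of them MCM subunits, lay above 0. These counts were 9 and 1 with the length trend removed, 15 and 5 after quantile normalization and 16 and 5 after globin rescaling. Over time in GdX-deficient spleen, 8 mitotic, 8 replication and 5 MCM members lay above 0, against 4, 3 and 2 after quantile normalization, 6, 6 and 4 after globin rescaling and 4, 2 and 1 with the length trend removed. Of the members given with values there, the sign changed for Ccnb2 (-0.19 quantile, -0.01 globin, -0.19 length), Mcm2 (-0.20, -0.02 and -0.23 in the same order) and Mcm7 (-0.03, length).

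Leaving out each library in turn gave 1 to 10 members higher for genotype at 6 h, 0 to 3 higher and 2 to 6 lower over time in wild type, and 0 to 10 higher for genotype over both times. Mitotic medians ran from 0.85 to 1.11 at 6 h, -0.66 to -0.43 over time in wild type, 0.43 to 0.74 over both times and 0.26 to 0.60 for the interaction. Replication medians ran from -0.37 to -0.11, 0.05 to 0.30, -0.12 to 0.17 and -0.42 to -0.21 in that order. Over time in wild type the members that changed sign ran from -0.53 to 0.19 (Ccnb1), -0.33 to 0.47 (Aurkb), -0.52 to 0.24 (Bub1b), -0.63 to 0.22 (Kif20a), -0.14 to 0.06 (Cdc20), -0.01 to 0.30 (Mcm4), -0.41 to 0.04 (Rrm1), -0.56 to 0.50 (Tyms), -0.31 to 0.00 (Ccne1) and -0.39 to 0.37 (Cdc6). Tyms ran from -0.97 to 0.08 for genotype at 6 h, and Ccnb2 from -0.01 to 0.08 and Mcm2 from -0.13 to 0.18 over time in GdX-deficient spleen. Without the GdX-deficient 6 h library, genotype at 6 h, time in GdX-deficient spleen and the interaction could not be fitted. Genotype over both times was still fitted without that library, on the early GdX-deficient libraries alone. Its medians were then 0.43 for mitotic and 0.17 for replication members. Count models were not run, since the table holds FPKM.

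Over all genes, genotype at 6 h gave 331 genes higher and 119 lower, 166 and 104 after quantile normalization, 209 and 39 after globin rescaling and 636 and 597 with the length trend removed. It gave 2272 and 763 without wild-type 6 h replicate 2, 2665 and 718 with the replicate block, 660 and 225 on only the libraries compared and 73 and 17 without a filter. Time in wild type gave 499 and 719, and 191 and 509 after globin rescaling. Globin rescaling moved the median of all genes from 0.07 to 0.25 for genotype at 90 min and from 0.32 to 0.55 at 6 h.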

Other observations

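Replication-dependent histone genes, whose transcripts accumulate in S phase and mostly lack a poly(A) tail, were looked at after the members' values were seen. The 16 genes with symbols of the histone clusters and a mean of at least 1 FPKM summed to 521 and 494 FPKM in wild type at 90 min, then 276 and 219 FPKM at 6 h. In GdX-deficient spleen they summed to 524 and 589 FPKM at 90 min, then 463 FPKM at 6 h. In wild type 3 of the 16 fell between the times by the limma test and 0 rose, against 6.32% and 4.39% of all genes. Their median log2 difference was -0.52, beside 0.05 for all genes. At 6 h none differed between genotypes past the threshold, against 2.91% of all genes higher and 1.05% lower without GdX. The median there was 0.83, beside 0.32 for all genes. Reads can be shared between the near-identical copies, so no single histone gene is named.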
